A study of Mus musculus with 4 samples.

Results

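T cells read the signal of their antigen receptor together with signals from costimulatory and inhibitory receptors, and 10 genes for such receptors were examined in mouse double positive (DP) thymocytes with and without Tox4, a nuclear HMG-box protein. The genes were Cd28, Icos, Cd2, Cd27, Ctla4, Pdcd1, Btla, Lag3, Cd5 and Cd6, taken by name from a table of 24984 genes, and all 10 had a mean CPM (fragments of the gene in every 1000000 of its library) of 1 or more. The measurement was TTchem-seq, in which RNA that took up 4-thiouridine over a brief labelling is purified and sequenced, so that the fragments over a gene, introns included, follow its recent transcription. The groups were 2 wild-type (WT) libraries from mice with floxed Tox4 alleles and no Cre (genotype Tox4;F/F), and 2 conditional knockout (cKO) libraries from mice with the same floxed alleles and Cre under the proximal Lck promoter (Tox4;F/F;Lck+). This Cre removes exons 4 to 6 of Tox4 from the DN3 stage of thymocyte development onwards. The mice were littermates of 6 to 8 weeks, and cells of both genotypes were kept in fresh medium for 0.5 h before labelling. Because WT mice carried no Cre, the presence of Cre and the loss of Tox4 cannot be told apart.

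DP thymocytes carry both CD4 and CD8 and are selected in the thymus according to how strongly their antigen receptor binds self peptides. CD28 and ICOS are immunoglobulin-family receptors that add activating signals, CD2 is an adhesion receptor, and CD27 belongs to the tumour necrosis factor receptor family. CTLA-4, PD-1 (Pdcd1), BTLA and LAG-3 restrain T cell responses. CD5 and CD6 are related scavenger receptors, and the amount of CD5 on a thymocyte is known to follow the strength of antigen receptor signalling.

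Transcription of none of the 10 receptor genes differed detectably between genotypes, relative to the other genes of each library. Spike-in RNA was not used for scaling, so a shift common to all genes would not be seen. With DESeq2, 0 of 10 met the criteria for a call, which were an adjusted p under 0.05, a change of 1.2-fold or more and a mean of 1 CPM or more, against 4.06% of all genes tested. edgeR and limma voom also called 0. An unadjusted DESeq2 p under 0.05 was found for Cd27 and Icos, that is for 20.0% of the receptor genes and for 14.3% of all genes tested, and for 1 receptor gene each by edgeR and by voom. The estimated change was upward for 5 genes and downward for 5, with a median of 0.02 on the log2 scale beside 0.00 over all genes. The median size of the change was 0.19 for the receptor genes and 0.12 for all genes. The cKO libraries were both higher than either WT library for 4 receptor genes, against 24.9% of all genes averaging 1 CPM or more. They were both lower for 5, against 24.0% of all genes, and the groups overlapped for Ctla4.

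Library totals ran from 38429786 to 48690591 fragments. Tox4 itself had 74.0 and 70.3 CPM in WT replicates 1 and 2, and 59.3 and 57.2 CPM in the corresponding cKO replicates. The groups did not overlap, and Tox4 fell by 0.31 on the log2 scale (SE 0.10), which DESeq2 gave an adjusted p of 0.0453. Over the alternative fits this adjusted p ran from 0.0359 to 0.792, and Tox4 was not called with any 1 library left out (lowest adjusted p 0.196). The counted gene reaches beyond the deleted exons, and its ends overlap Rab2b and Mettl3 on the other strand. The part of either in the Tox4 values was not tested. Xist, an RNA of female cells, reached 172 CPM in WT replicate 1 and no more than 2.36 CPM elsewhere. WT replicate 1 thus stood apart, and values without it are given below. The study's methods describe mice matched for sex. By Xist these libraries were not alike, and the part of sex in the values was not tested. Of the defining DP markers, Cd4 was at 621 to 715 CPM and Cd8b1 at 325 to 433 CPM, and neither was called. Cd8a fell by 0.54 and Rag1 by 0.31 on the log2 scale (DESeq2 adjusted p of 1.21e-05 and 0.0499). Over all 10 listed DP markers, 5 had an upward and 5 a downward estimate, with a median of -0.02. Their summed level was 5008 and 6014 CPM in WT and 5412 and 5174 CPM in cKO, so the groups overlapped. In bulk libraries, fewer cells of a type and less RNA per cell cannot be told apart.

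The receptor genes had very different levels of TTchem-seq fragments. Levels between genes were compared as CPM per kb of gene, over all 4 libraries, and Cd27 and Cd28 led with 21.5 ± 3.29 and 18.2 ± 1.02 CPM per kb (mean ± SD, n = 4). These values stood at the 97.7 and 97.2 percentiles of all genes averaging 1 CPM or more. Cd2 followed with 5.38 ± 0.516 CPM per kb and Ctla4 with 4.35 ± 0.812 CPM per kb. The scavenger receptor genes came next, Cd5 with 2.45 ± 0.267 and Cd6 with 2.15 ± 0.0660 CPM per kb, and then Icos with 1.41 ± 0.249 CPM per kb, near the middle of all genes (49.1 percentile). Lag3, Pdcd1 and Btla were lowest, with 0.533 ± 0.0410, 0.350 ± 0.0362 and 0.178 ± 0.0192 CPM per kb. The mean of Cd27 was thus 121 times that of Btla. Of the 9 neighbouring pairs in this order, Cd27 with Cd28 and Cd5 with Cd6 overlapped between libraries, and in the remaining pairs all libraries of the lower gene lay below all libraries of the higher gene. Without division by gene length, 2 of the 10 genes kept their place in the order. Exons made up from 7.45% (Cd6) to 35.8% (Cd27) of the counted genes, and the part of mature RNA in these levels was not tested.

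**Figure D1:**
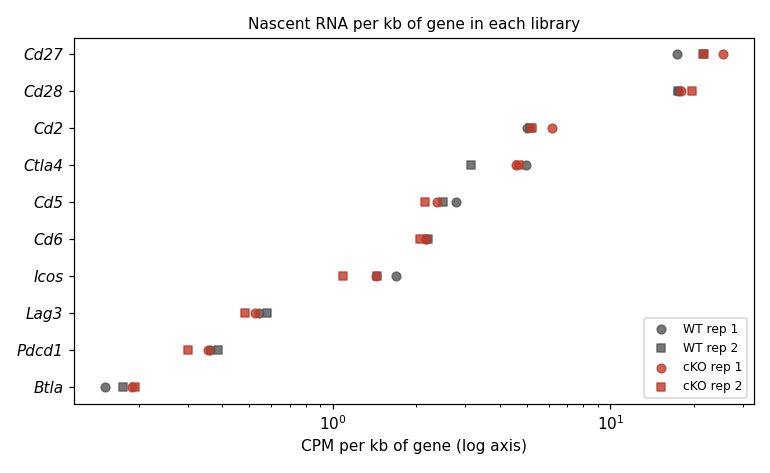
Level of each receptor gene in CPM per kb of gene on a log axis, with 1 point per library (WT grey, cKO red, replicate 1 circles, replicate 2 squares). Cd27 and Cd28 lie between 17.3 and 25.4 CPM per kb, and Lag3, Pdcd1 and Btla lie below 1.

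Within the CD28 family, Cd28, Ctla4 and Icos lie in one cluster on chromosome 1. In build GRCm38, Cd28 occupies chr1:60746388-60773359, Ctla4 chr1:60909025-60915832 and Icos chr1:60977914-61000321, all on the plus strand. Introns made up 84.0%, 71.6% and 85.5% of these intervals. The density of Cd28 in CPM per kb was 3.54, 5.54, 3.91 and 4.20 times that of Ctla4 in WT replicates 1 and 2 and cKO replicates 1 and 2. Against Icos the ratio was 10.4, 12.1, 12.5 and 18.1 in the same order. Cd28 therefore exceeded both cluster members in every library.

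Cd28, the receptor for CD80 and CD86 that gives the classical second signal, was at 474 and 471 CPM in WT and at 483 and 530 CPM in cKO. The WT libraries were nearly equal and both cKO libraries were higher, with cKO replicate 2 the highest. The log2 fold change was 0.10 ± 0.08 (SE), its 95% interval ran from -0.05 to 0.25, with a DESeq2 adjusted p of 0.639. On the linear scale this interval runs from 0.965-fold to 1.19-fold. With 1 library left out, the log2 estimate of Cd28 ran from 0.03 to 0.17. Icos, whose product binds ICOS ligand and aids T cell help, was at 37.9 and 32.3 CPM in WT and at 32.1 and 24.3 CPM in cKO. Both cKO libraries were lower, but cKO replicate 1 was almost level with WT replicate 2. The estimate was -0.32 ± 0.16 (SE), with a 95% interval of -0.62 to -0.01 and an unadjusted p of 0.0407. After adjustment the DESeq2 p was 0.318. Without 1 library at a time the estimate ranged from -0.52 to -0.13.

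Cd2 (chr3:101275908-101287939, minus strand) encodes an adhesion receptor that binds CD48 in mice. It was at 60.2 and 61.9 CPM in WT and at 73.9 and 63.0 CPM in cKO. The cKO libraries were both higher, cKO replicate 2 only slightly, and the log2 fold change was 0.16 ± 0.11 (standard error, DESeq2 adjusted p of 0.567) and 0.05 without cKO replicate 1. Cd27 (chr6:125232622-125237027, minus strand), the receptor for CD70, was at 76.4 and 94.8 CPM in WT and at 112 and 95.8 CPM in cKO. WT replicate 1 was the lowest library, cKO replicate 1 the highest, and the remaining libraries were close to each other. Its estimate was 0.27 ± 0.12 (SE) on the log2 scale, the largest upward estimate among the receptor genes, with a 95% interval of 0.04 to 0.51. The unadjusted p was 0.0215 and the DESeq2 adjusted p was 0.220. Leaving out WT replicate 2 raised the estimate to 0.45 and gave the only call among the receptor genes in any alternative (DESeq2 adjusted p of 0.0296). Leaving out WT replicate 1 lowered it to 0.12, and over all alternative fits the adjusted p of Cd27 ran from 0.0296 to 0.9995. The long noncoding RNA gene E130112N10Rik spans Cd27 on the plus strand, and Mir8113 lies inside Cd27 on the minus strand, the strand of Cd27, so fragments could be shared. Use of strand in the counting was not stated for this table. The log2 fold changes of E130112N10Rik and Mir8113 were 0.12 and 0.30 (DESeq2 adjusted p of 0.769 and 0.776).

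**Figure D2:**
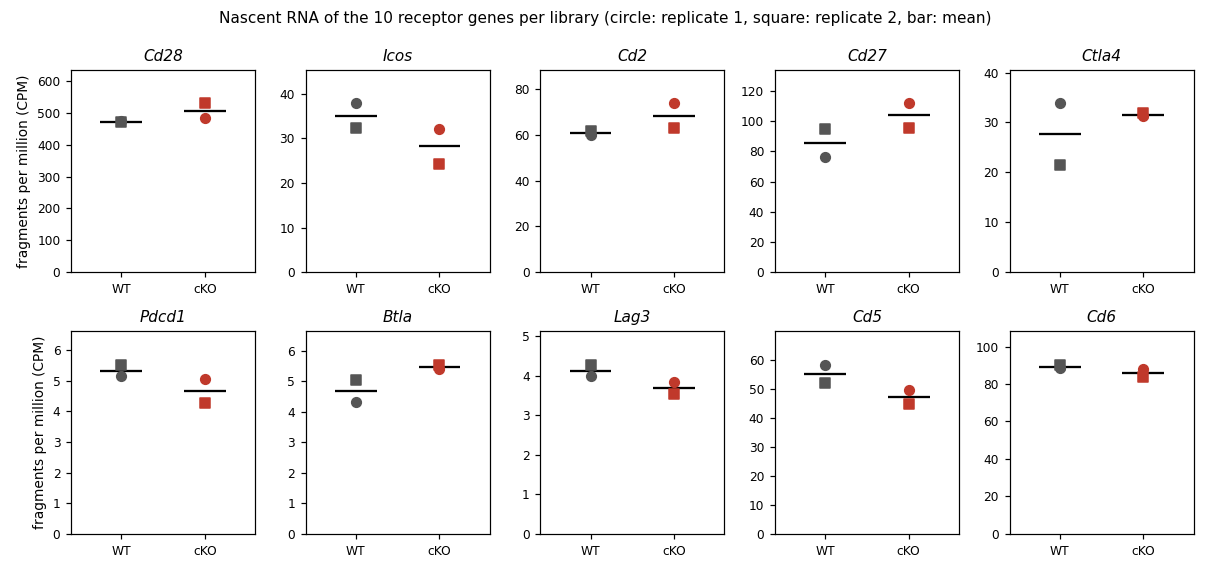
CPM of each receptor gene in the 4 libraries, with 1 panel per gene, each axis starting at 0, and the mean of each genotype as a bar. The WT libraries of Ctla4 lie at 33.8 and 21.5 CPM on either side of both cKO libraries, while the groups of the other 9 genes do not overlap.

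Among the inhibitory receptors, Ctla4, which competes with CD28 for the same ligands, was at 33.8 and 21.5 CPM in WT and at 31.2 and 31.9 CPM in cKO. The cKO libraries were nearly equal and lay between the WT libraries, which differed 1.57-fold. The estimate was 0.19 ± 0.18 (SE), with a 95% interval of -0.16 to 0.54 and a DESeq2 adjusted p of 0.739. It became 0.54 when WT replicate 1 was left out and -0.10 when WT replicate 2 was, so its direction was set by the choice of WT library.

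Pdcd1, Btla and Lag3 were each below 6 CPM. Pdcd1 (chr1:94038305-94052553, minus strand), which encodes PD-1, was at 5.14 and 5.50 CPM in WT and at 5.05 and 4.28 CPM in cKO. Both cKO libraries were lower, the first of them only slightly, and the log2 fold change was -0.19 ± 0.28 (standard error, DESeq2 adjusted p of 0.851). With 1 library left out it ran from -0.31 to -0.08. Btla (chr16:45224337-45252895, plus strand), a receptor for HVEM, was at 4.32 and 5.03 CPM in WT and at 5.41 and 5.53 CPM in cKO. Both cKO libraries were higher, with an estimate of 0.22 ± 0.28 (SE, DESeq2 adjusted p of 0.820). With 1 library left out it ran from 0.11 to 0.35. Lag3 (chr6:124904359-124911705, minus strand), a receptor for MHC class II related to CD4, was at 3.99 and 4.27 CPM in WT and at 3.85 and 3.55 CPM in cKO. Both cKO libraries were slightly lower, with an estimate of -0.16 ± 0.31 (SE, DESeq2 adjusted p of 0.895). These genes rested on 141 to 268 fragments per library, and their 95% intervals were the widest: 0.594-fold to 1.29-fold for Pdcd1, 0.797-fold to 1.71-fold for Btla and 0.583-fold to 1.37-fold for Lag3.

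Cd5 and Cd6 lie 50.4 kb apart on the minus strand of chromosome 19, at chr19:10718143-10738974 and chr19:10789339-10830058. Cd5, which dampens antigen receptor signalling, was at 58.1 and 51.8 CPM in WT and at 49.7 and 44.6 CPM in cKO. Both cKO libraries were lower, and the step from the lower WT to the higher cKO library was smaller than the step between replicates. The estimate was -0.22 ± 0.12 (SE), with an unadjusted p of 0.0538 and a DESeq2 adjusted p of 0.364. Cd6, a receptor for ALCAM, was at 88.6 and 90.0 CPM in WT and at 88.0 and 83.8 CPM in cKO. Its libraries were the most alike of the receptor genes relative to their mean, and the log2 fold change was -0.06 ± 0.09 (standard error, DESeq2 adjusted p of 0.861). The density of Cd6 was 0.780 and 0.889 times that of Cd5 in WT and 0.907 and 0.960 times in cKO, so Cd5 was the denser gene in every library.

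**Figure D3:**
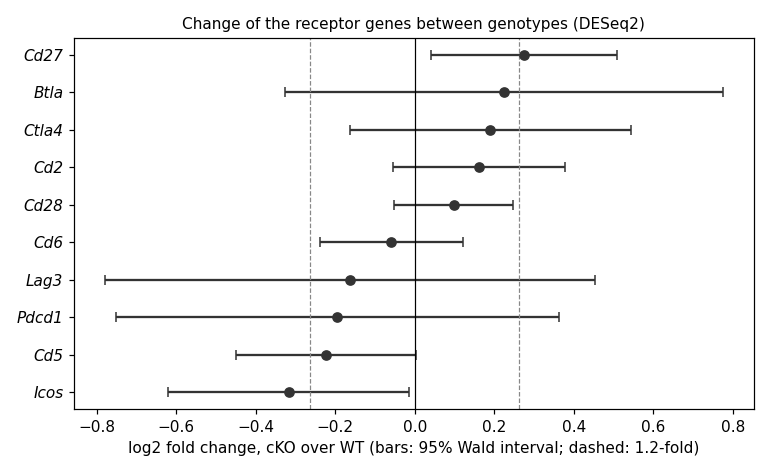
Log2 fold change of cKO over WT for each receptor gene from DESeq2 (n = 2 libraries per genotype), with 95% Wald intervals, and dashed lines at a fold change of 1.2 in either direction. The interval includes 0 for 8 genes, and those of Cd27 and Icos end close to 0.

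For 8 of the 10 genes the 95% interval included no change, and for 6 it lay within a 1.5-fold change in either direction. A fold change of at least 1.2 was estimated for 2 receptor genes (20.0%) and for 20.4% of all genes tested. The intervals rest on a spread that DESeq2 pools over genes. For a single gene, the smallest p of a two-sided exact permutation test with 2 libraries per group is 0.333. With 1 library left out at a time, 9 of the 10 genes kept the sign of their estimate, and Ctla4 did not. Without WT replicate 1, the library with high Xist, the estimates ran from -0.25 for Pdcd1 to 0.54 for Ctla4, and none was called (lowest DESeq2 adjusted p 0.147).

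**Figure D4:**
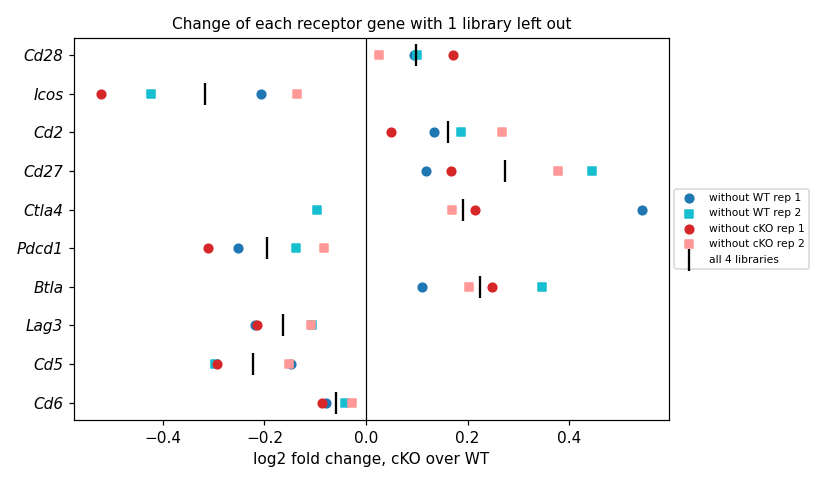
Log2 fold change of each receptor gene with all 4 libraries (black bar) and with 1 library left out (coloured points). Ctla4 spans -0.10 to 0.54 and crosses 0, and Cd27 spans 0.12 to 0.45 on 1 side of it.

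The stretches just upstream of Cd27 and Cd5 are shown because these genes had the largest upward and downward estimates among the receptor genes with a RefSeq promoter entry here (5 of 10: Cd27, Cd5, Btla, Pdcd1 and Ctla4), and that of Ctla4 because its WT libraries disagreed. Each runs 5′ to 3′ on the gene's strand over the 250 bases before the start of the counted gene, as given in a RefSeq promoter table (build GRCm38.p6): chr6:125237028-125237277 for Cd27, chr19:10738975-10739224 for Cd5 and chr1:60908775-60909024 for Ctla4. Capitals mark matches, on either strand, to an E-box (CANNTG, the letters bound by E proteins, which are important in DP thymocytes) and, in Ctla4, to the NFAT core TGGAAA read on the other strand.
Cd27: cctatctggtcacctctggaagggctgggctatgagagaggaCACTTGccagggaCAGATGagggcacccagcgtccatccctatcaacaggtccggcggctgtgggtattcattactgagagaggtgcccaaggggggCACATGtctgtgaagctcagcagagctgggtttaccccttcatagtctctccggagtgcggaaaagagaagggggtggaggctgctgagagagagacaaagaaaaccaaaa
Cd5: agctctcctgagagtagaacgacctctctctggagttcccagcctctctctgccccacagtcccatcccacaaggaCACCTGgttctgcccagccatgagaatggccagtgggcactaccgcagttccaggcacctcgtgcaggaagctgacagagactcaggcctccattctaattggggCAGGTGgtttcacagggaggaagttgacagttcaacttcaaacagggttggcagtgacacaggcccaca
Ctla4: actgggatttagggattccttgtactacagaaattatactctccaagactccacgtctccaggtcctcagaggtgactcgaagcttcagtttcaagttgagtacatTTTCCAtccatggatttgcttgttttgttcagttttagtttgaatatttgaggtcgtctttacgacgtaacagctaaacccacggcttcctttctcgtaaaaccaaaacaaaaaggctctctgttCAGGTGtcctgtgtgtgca

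E-box letters were found in 4 of the 5 promoters, and in 66.2% of all 32851 promoter stretches of this length. Distances are from the start of the counted gene, and RefSeq also lists transcripts that reach 109 bases further upstream for Cd27, 52 for Cd5 and 632 for Btla. The E-box letters began 208, 195 and 111 bases before the start of Cd27, 174 and 69 bases before that of Cd5, 236 before that of Btla and 19 before that of Ctla4. The NFAT letters were in Ctla4 alone (18.6% of all promoters). Btla held the RUNX letters TGTGGT (14.05%) and the ETS letters CGGAAG (13.6%) once each, and the Pdcd1 stretch had no match. The TATA letters TATAAA (12.4%) and the AP-1 letters TGANTCA (6.75%) were in none of the 5. Both strands were searched, and a match is a description of the letters and not of binding. GC content ran from 42.4% in Ctla4 to 60.4% in Pdcd1, beside a median of 52.4% over all promoters.

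Genes around the receptor genes were examined for changes that the receptor genes did not share. Within 100 kb there were 49 genes, 33 of them with a mean CPM of at least 1, and their median log2 fold change was 0.03. P3h3, a prolyl hydroxylase gene 46.6 kb from Lag3, was at 7.67 and 6.92 CPM in WT and at 15.0 and 15.3 CPM in cKO. The genotypes did not overlap, and P3h3 rose by 1.05 ± 0.20 (SE) on the log2 scale with a DESeq2 adjusted p of 1.27e-05. It was also called by edgeR and voom, but not without cKO replicate 2 (DESeq2 adjusted p of 0.0859, the highest over its alternatives). Tapbpl, which encodes the MHC class I peptide editor TAPBPR and begins 0.761 kb past the end of Cd27 on the same strand, was at 28.5 and 29.9 CPM in WT and at 45.0 and 39.6 CPM in cKO. It rose by 0.53 ± 0.13 (SE) with a DESeq2 adjusted p of 0.00181, and was not called by edgeR (adjusted p of 0.0888) or voom (0.0805). Over its alternatives the adjusted p of Tapbpl ran from 0.00151 to 0.487, and leaving out WT replicate 1 or either cKO library ended the call. Cd4, 16.2 kb from Lag3, was at 621 and 715 CPM in WT and at 690 and 694 CPM in cKO, a log2 fold change of 0.05 (DESeq2 adjusted p of 0.881). Next to Cd5, Vps37c (3.51 kb away) had a log2 fold change of -0.06, and A430093F15Rik, which lies between Cd5 and Cd6, had -0.07. No gene of the table lay within 100 kb of Cd28.

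Of the intracellular partners of the receptors, 1 of 26 was called, a share near the 4.06% of all genes tested. These partners bind or carry the signals of CD28, CD2, CD27 and the other receptors. All 26 had a mean CPM of at least 1, 16 had a downward and 10 an upward estimate, and 1 fell past the criteria. It was Carmil2, which encodes the RLTPR protein that couples CD28 to downstream signalling. Carmil2 was at 131 and 133 CPM in WT and at 107 and 100.5 CPM in cKO, with no overlap between genotypes. It fell by 0.35 on the log2 scale (SE 0.09, DESeq2 adjusted p of 0.00327), and was not called by edgeR (adjusted p of 0.0767), by voom (0.0805) or with any 1 library left out, where the DESeq2 adjusted p ran from 0.0823 to 0.558. Among the partners with the highest mean CPM was Grap2, the adaptor GADS, with a log2 fold change of 0.11 (DESeq2 adjusted p of 0.557). The median over the 26 was -0.05.

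The other lists held no called gene, but only genes with an adjusted p could be called: 11 of 13 other costimulatory receptors, 5 of 14 other inhibitory receptors and 5 of 12 ligand genes. Of the 13 other costimulatory receptors, 12 had a mean CPM of at least 1, with a median log2 fold change of -0.10. The highest were Slamf6, a homophilic SLAM family receptor, with a log2 fold change of 0.14 (DESeq2 adjusted p of 0.463), and the tetraspanin gene Cd81 with -0.24 (0.251). Of the 14 other inhibitory receptors, 9 had a mean CPM of at least 1, with a median of -0.05. The adhesion receptor gene Pecam1 was the highest, with a log2 fold change of 0.08 (DESeq2 adjusted p of 0.769), followed by Vsir, which encodes VISTA, with -0.19 (0.362). Of the 12 ligand genes, 7 had a mean CPM of at least 1, with a median of -0.22. The highest were Tnfrsf14, which encodes the BTLA ligand HVEM, at 37.9, 33.4, 33.0 and 28.1 CPM (log2 fold change -0.22, DESeq2 adjusted p of 0.497), and Cd274, which encodes PD-L1, at 23.5, 20.9, 25.03 and 23.5 CPM (0.13, 0.798). The medians are descriptions, and all genes tested had a median of 0.00.

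**Figure D5:**
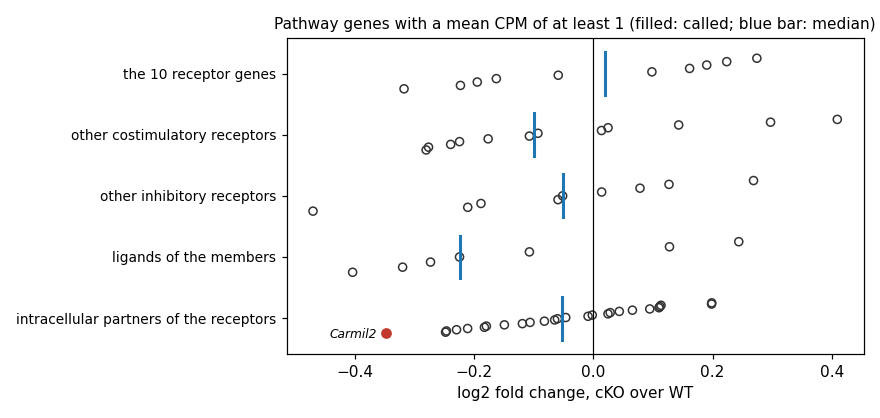
Log2 fold change of cKO over WT for the receptor genes and 4 lists of pathway genes (mean of 1 CPM or more), with 1 circle per gene, called genes filled, and the median of each list as a blue bar. Only Carmil2 is filled, at -0.35, and the medians lie between -0.22 and 0.02.

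Markers of cell states that could carry these receptors also moved between genotypes, and their part in the values above was not tested. Among 10 markers of antigen receptor signalling, 8 had a mean CPM of at least 1. Of these, Bcl2 (log2 fold change 0.64), Tox (0.39) and Nr4a3 (0.37) rose and the immediate early gene Egr1 fell by 0.70 on the log2 scale (DESeq2 adjusted p from 4.01e-07 to 0.0230). Of the 8, 5 had a downward estimate, and the median was -0.14. The summed level of the list was 994 and 1048 CPM in WT and 1373 and 1234 CPM in cKO, and without Tox and Bcl2 it was 209 and 219 CPM in WT and 205 and 225 CPM in cKO. Among 9 markers of mature single positive cells, Runx3 (0.42) and Il7r (0.36) rose and Ccr7 fell by 0.34 on the log2 scale, and the summed level was 601 and 591 CPM in WT and 616 and 540 CPM in cKO. Regulatory T cells carry Ctla4 and Icos. Of their 8 markers, Ikzf2 rose by 0.87 on the log2 scale (DESeq2 adjusted p of 4.63e-28), and the defining marker Foxp3 was at 2.44 and 2.99 CPM in WT and at 2.33 and 1.72 CPM in cKO. The summed level of the 8 was 474 and 435 CPM in WT and 792 and 760 CPM in cKO, and without Ikzf2 it was 68.2 and 62.6 CPM and 71.0 and 57.7 CPM. Of the 8 markers of innate-like T and NK cells, 4 had a mean CPM of at least 1 and Zbtb16 fell by 1.38 on the log2 scale, with a summed level of 41.4 and 28.5 CPM in WT and 24.8 and 22.2 CPM in cKO. Without Zbtb16 the sum was 20.9 and 15.8 CPM in WT and 17.3 and 16.95 CPM in cKO. In the same list Gzma, chosen after its values were seen, was at 2.06 and 1.87 CPM in WT and at 3.10 and 5.03 CPM in cKO (DESeq2 adjusted p of 0.114). Of the 7 DN cell markers, Notch3 rose by 1.28 on the log2 scale, and their summed level was 60.7 and 65.0 CPM in WT and 90.0 and 102 CPM in cKO. Without Notch3 it was 38.2 and 39.5 CPM in WT and 34.97 and 40.6 CPM in cKO. Markers of B cells, myeloid cells and erythroid cells held no called gene, with summed levels of 12.2 to 14.3, 16.3 to 20.2 and at most 0.780 CPM per library. Most of these markers could not be called, since an adjusted p was available for 2 of 7 B cell, 2 of 9 myeloid and 0 of 7 erythroid markers. Of the 5 myeloid markers with a mean CPM of 1 or more, 3 had an upward and 2 a downward estimate, with a median of 0.34. Lyz2, a defining myeloid marker, was at 1.34 and 1.21 CPM in WT and at 0.312 and 0.679 CPM in cKO.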

How the data were processed

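Per the study's methods and the submitters' processing notes, the authors filtered reads with fastp 0.13.1 and aligned them with STAR 2.7.9a to GRCm38. The notes also name featureCounts 1.6.1. Values in the deposited table were treated here as estimated counts, since 8.61% were fractional, which a division of shared fragments among genes would give. The methods describe gene counts from the STAR output, so the table may differ from the one described there. The table also gives a gene length in bp. The length of each gene equalled the union of its start-to-end intervals, so introns were counted. How fractions were assigned, whether duplicates were removed and how the labelled cells were purified were not given in the sources used here. The labels' library text speaks of poly(A) capture. Yeast spike-in RNA was not used for scaling. Fragments carried no molecular identifiers.

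Counts were rounded to whole numbers and tested with the DESeq2 1.42.0 Wald test (R 4.3.3), with default size factors, without covariates or shrinkage. Genes were called at a Benjamini-Hochberg adjusted p under 0.05, a 1.2-fold or larger change and a mean of 1 CPM or more. Of 11625 genes with that CPM, 10624 had an adjusted p and 431 were called (249 increased, 182 decreased). CPM used the table's totals. The 95% interval is the estimate ± 1.96 SE. Alternatives were edgeR 4.0.16 quasi-likelihood, limma 3.58.1 voom, other scaling, filters and thresholds, a replicate block, and leaving out each library, with the lone library assumed to vary like the other group. The chi-square per degree of freedom between replicates was 40.7 for WT and 30.7 for cKO, so all libraries were kept as separate samples. The study's reporting summary calls replicates of its genomic analyses biological, but the labels do not say whether they came from separate mice. The p-values rest on the variation between these libraries, pooled over genes. The procedure was tested on simulated data.

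The receptor genes and all lists were chosen with earlier results of these data known. Genes named in the text were Tox4, the 10 receptor genes, called genes of each pathway list or otherwise its 2 genes of highest mean CPM (for the partners, both), neighbours within 100 kb that overlap, lie nearest or were called, and called or defining markers. Some nearest neighbours are not described, and a few genes that the rule would name are not reported here.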

Additional observations from a re-analysis of the deposited data

How the results depend on the processing

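Of 130 comparisons of a receptor gene's change with its value in another fit, 128 kept their direction and their side of the threshold, among them all 90 that left out no library. A further 30 changed only a criterion of the call, left the estimates and adjusted p as they were, and say nothing about stability. Ctla4 turned to -0.10 on the log2 scale without WT replicate 2 (range over left-out libraries -0.10 to 0.54), and Cd27 was called without that library, so that the number of receptor genes called was 0 to 1 over the fits that left out a library. Every alternative that kept all libraries called 0 receptor genes and left their median log2 fold change at 0.02. With 1 library left out this median ran from -0.07 to 0.01, so its sign was not stable. Increased and decreased genes numbered 249 and 182, but 59 and 17 by edgeR, 57 and 16 by voom, 106 and 44 with a 1.5-fold threshold, and 61 to 320 and 28 to 126 with 1 library left out. Called pathway genes went from 1 to 0, and called neighbours from 2 to 1, by edgeR, by voom and at a fold change of 1.5. Leaving out a library gave 0 to 0 pathway genes and 0 to 2 neighbours. Libraries with the same replicate number shared no common direction over genes (correlation of deviations -0.03). This single contrast cannot exclude that they were paired by litter or by day. With the replicate number as a block, 121 genes were increased and 72 decreased by DESeq2, and 67 and 29 by edgeR, with 0 pathway genes and 1 neighbour in both, and 0 receptor genes (lowest adjusted p 0.611 and 0.258). Dividing by gene length decided the order of levels, and 2 of 10 genes kept their place without it. The cause of these shifts was not tested. With 2 libraries per genotype, the receptor genes below 6 CPM had the widest intervals.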
